A study of Homo sapiens with 18 samples.

Results

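Gemcitabine-resistant pancreatic cancer cells in which STIM1 had been depleted were compared with the parental cells, both after thapsigargin, in 6 of the 18 libraries of the series. The 3 libraries on the resistant side came from GemR cells, a derivative of the human pancreatic cancer cell line L3.6pl kept in 64 nM gemcitabine. These cells had an siRNA against STIM1 (siSTIM1) for 48 h and 500 nM thapsigargin for the last 3 h. The 3 libraries on the parental side came from L3.6pl cells, called Par, with a control siRNA (siCont) for the same 48 h and the same thapsigargin. All 6 were chosen by their labels and not by a measured value. Further groups of 3 used here were Par siCont and GemR siSTIM1 with the vehicle DMSO, and GemR siCont with thapsigargin, and a last group, GemR siCont with DMSO, entered the estimate of the spread behind every standard error and adjusted p. Par cells with siSTIM1 were not analysed here, and GemR is a single derivative. Resistance, growth in gemcitabine and the siRNA therefore differ together between the 2 groups compared, and in that comparison they cannot be told apart. Beyond a replicate number, the labels do not say whether cultures were separate, so the p-values measure the spread between these libraries, which may be technical.

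Thapsigargin blocks SERCA, the pump that fills the endoplasmic reticulum (ER) with calcium. As the ER empties, unfolded proteins set off its stress sensors: PERK slows translation and lets the transcription factor ATF4 through, ATF6 and IRE1-XBP1 raise chaperones, and CHOP, the product of DDIT3, follows when stress lasts. In parallel, the ER calcium sensor STIM1 opens ORAI channels in the plasma membrane, and the calcium that enters acts on calcineurin, the transcription factor NFAT and immediate early genes. Gemcitabine is a nucleoside analog whose active forms stop DNA synthesis and inhibit ribonucleotide reductase, whose large subunit is RRM1.

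The 6 libraries held 13217331 to 16519239 recovered reads each. GemR siSTIM1 thapsigargin replicate 1 had the fewest reads of its group, 13249840 beside 16519239 and 16165624. Its deviation from the group mean fell with transcript length (Spearman's rho = -0.507 across 12419 genes, which are not independent replicates). Replicates 2 and 3 had 0.372 and 0.379, an opposite sign that follows from deviations offsetting each other within a group. The 3 Par thapsigargin libraries lay from -0.162 to 0.167. The GemR siCont vehicle libraries, whose values enter no comparison, lay farther apart (-0.585, 0.399 and 0.534). Without that group, a fit chosen after the data were seen, 7728 genes passed in the main comparison in place of 6939. All 6 ductal epithelial markers were present in both groups, with summed levels of 98426 to 105330 normalized counts in Par and 77125 to 91515 in GemR siSTIM1. The 9 acinar and endocrine markers summed to 7.3 at most, the 10 immune markers to 178 at most and the 7 endothelial markers to 280.5 at most. A lower level in bulk RNA can come from fewer cells that express a gene or from less RNA per cell, and these cannot be told apart.

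Promoters of 3 ER stress genes are shown because most targets of the ER stress pathways were lower in the siSTIM1 cells. The ER stress response element (ERSE, CCAAT and CCACG with 9 bases between) is read by ATF6, and TGATGCAA is a form of the element read by ATF4. Each line gives the 250 bases before a gene's start in RefSeq (GRCh38.p14), 5′ to 3′ on the gene's strand, with matches on either strand in capitals. HSPA5, the main ER chaperone, has its promoter at chr9:125241344-125241593, - strand. That of HSP90B1, an ER chaperone of the HSP90 family, lies at chr12:103930160-103930409, + strand. That of CHAC1, a glutathione-degrading enzyme, lies at chr15:40953221-40953470, + strand.
HSPA5: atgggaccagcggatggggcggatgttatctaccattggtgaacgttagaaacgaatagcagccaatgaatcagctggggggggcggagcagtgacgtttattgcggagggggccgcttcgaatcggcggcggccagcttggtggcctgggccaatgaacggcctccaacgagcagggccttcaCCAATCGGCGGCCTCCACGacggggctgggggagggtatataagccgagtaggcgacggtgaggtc
HSP90B1: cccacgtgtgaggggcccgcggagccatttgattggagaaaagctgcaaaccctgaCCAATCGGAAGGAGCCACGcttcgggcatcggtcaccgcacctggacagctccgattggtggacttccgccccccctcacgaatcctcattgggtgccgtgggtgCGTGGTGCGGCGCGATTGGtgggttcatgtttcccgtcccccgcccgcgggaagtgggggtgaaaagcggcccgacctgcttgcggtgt
CHAC1: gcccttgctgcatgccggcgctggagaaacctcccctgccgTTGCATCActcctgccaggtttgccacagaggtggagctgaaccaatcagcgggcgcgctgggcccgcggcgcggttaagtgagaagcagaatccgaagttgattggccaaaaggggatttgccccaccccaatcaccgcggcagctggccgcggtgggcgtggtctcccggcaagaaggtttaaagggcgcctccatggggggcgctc
The ERSE was found in 7 of 25 matched ATF6-XBP1 chaperone genes (HSPA5, HSP90B1, CALR, CANX, CRELD2, ERO1B and XBP1) and in 0.0806% of the 27305 RefSeq promoters. TGATGCAA was found in 3 of 25 matched PERK-ATF4 genes (CHAC1, FGF21 and HERPUD1) and in 0.82% of all promoters. CCACG, which the ERSE contains, was found in 18 of 25 chaperone genes and in 33.3% of all promoters. It is not particular to the chaperones, as 11 of 15 matched ER-associated degradation genes and 12 of 18 sterol and fatty acid synthesis genes held it. Other lists had smaller shares, such as 1 of 12 basal-like subtype genes. A match describes these letters and does not show that a factor was bound.

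STIM1 (ENSG00000167323.11), the siRNA target on chromosome 11, was read first. With thapsigargin it stood at 423, 421 and 448 normalized counts in the 3 Par libraries and at 272, 353 and 305 in the 3 GemR siSTIM1 libraries. Every siSTIM1 library lay below every Par library, and the log2 fold change was -0.48 ± 0.10 (adjusted p = 0.000325, limma). GemR siCont with thapsigargin stood at 6079, 6307 and 6174, far above both groups. RRM1 (ENSG00000167325.14), the next gene on that chromosome, stood at 2717, 2551 and 2588 in Par and at 46925, 53065 and 50074 in GemR siSTIM1, without overlap (4.25 ± 0.06, adjusted p = 1.6e-20). The depleted GemR cells thus carried slightly less STIM1 mRNA than Par and 19.1-fold more RRM1 mRNA.

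**Figure D1:**
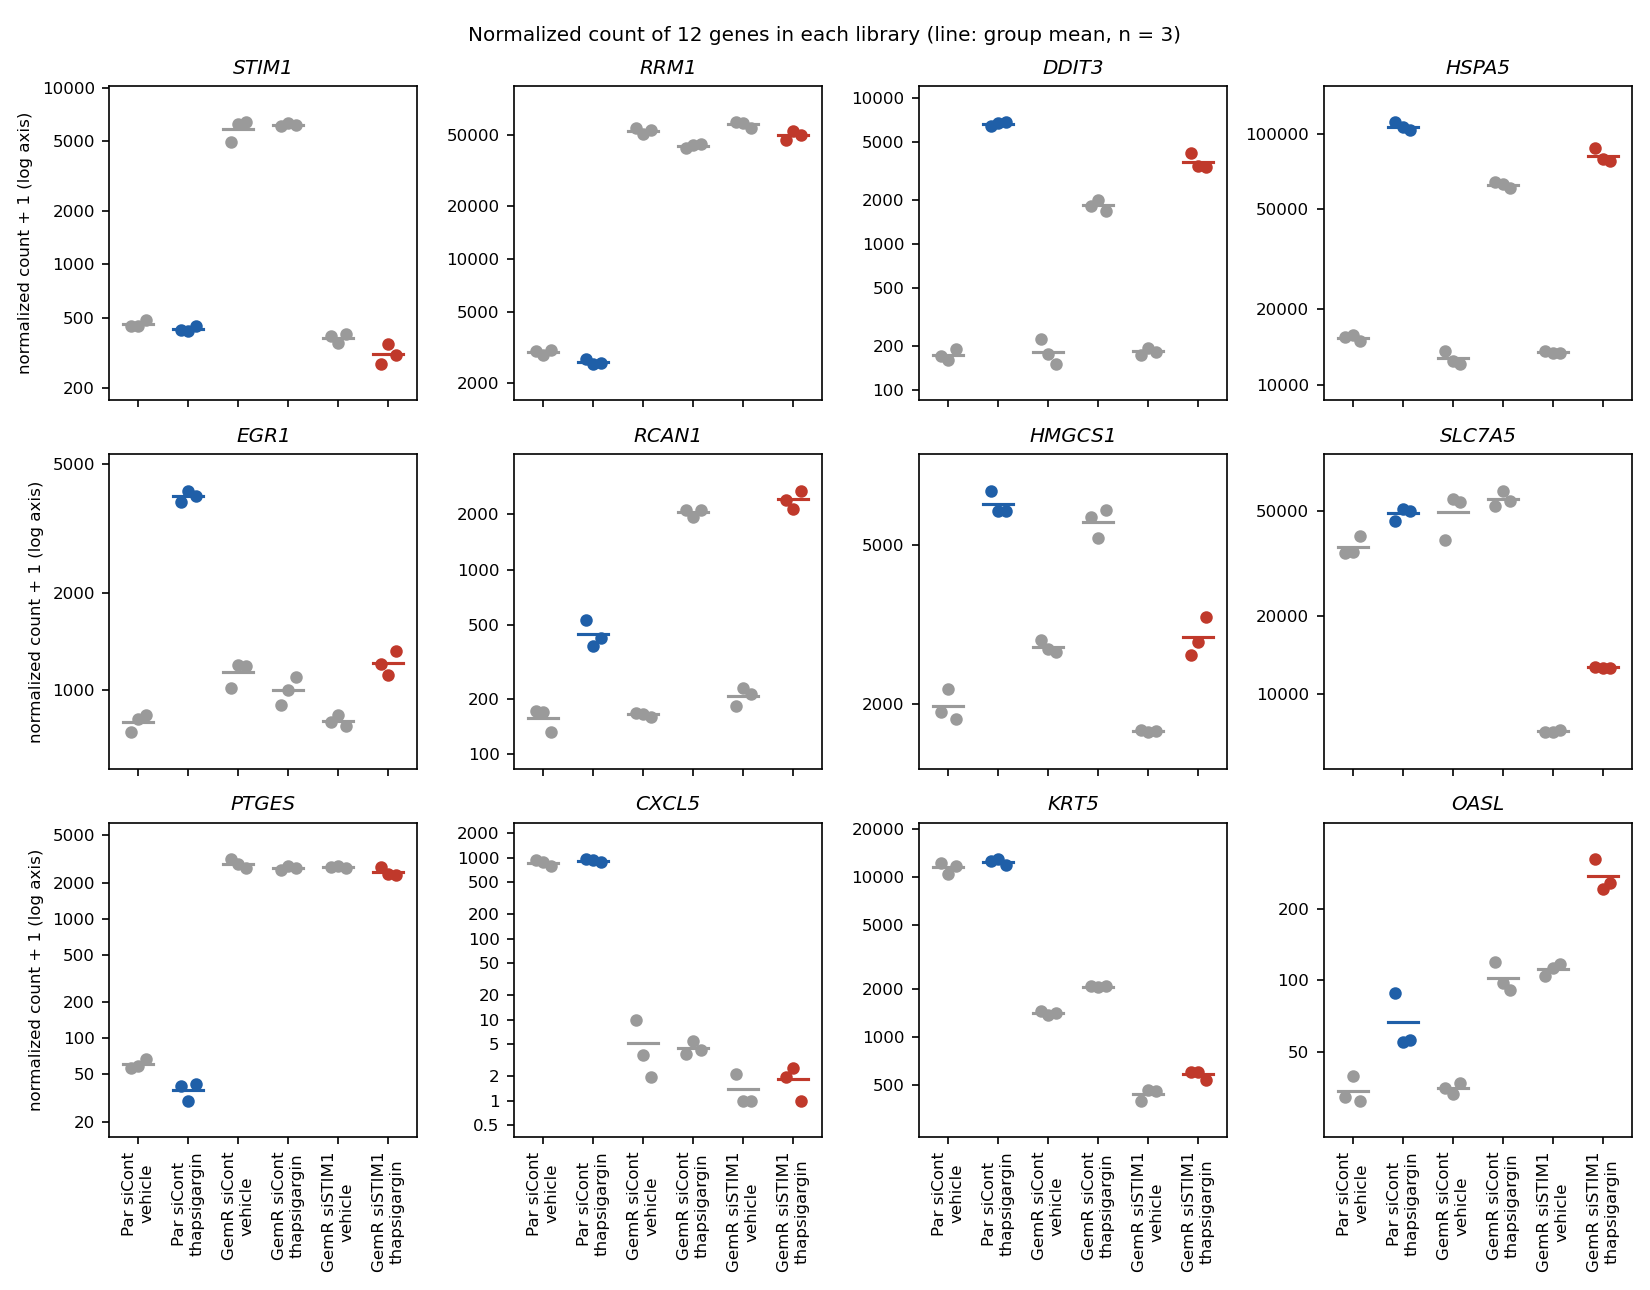
Normalized count plus 1 (log axis) of 12 genes in the 18 libraries, 1 point a library, with a line at the mean of each group of 3. Par with thapsigargin is blue, GemR siSTIM1 with thapsigargin is red, and the other 4 groups are grey. STIM1 in the red group lies just under the blue one, whereas RRM1, RCAN1, PTGES and OASL lie above it and DDIT3, HSPA5, EGR1, HMGCS1, SLC7A5, CXCL5 and KRT5 below it.

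Across the transcriptome, 3231 of 13096 tested genes (24.7%) were higher and 3708 (28.3%) were lower in GemR siSTIM1 than in Par under thapsigargin, at an adjusted p under 0.05 in limma's fit over the 18 libraries. Changes of at least 2-fold made up 766 of the higher genes (5.85% of those tested) and 742 of the lower (5.67%). Without siSTIM1 replicate 1, 2903 were higher and 3367 lower. The split depends on the scaling, with 3621 higher and 3247 lower after quantile normalization, 3492 and 3413 with each library centred on its median and 3443 and 3478 in edgeR. Each gene list below is described by its counts and its median log2 fold change, to be read against these shares and against a median of -0.02 over all tested genes. A gene may stand in more than 1 list. Many members named below were picked for the largest called changes of their list, so their lack of overlap is no separate result. The share of all tested genes without overlap is not given here. Values after ± are standard errors of the fit, all fold changes are on the log2(normalized count + 1) scale, and all levels are normalized counts with thapsigargin unless the vehicle is named.

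**Figure D2:**
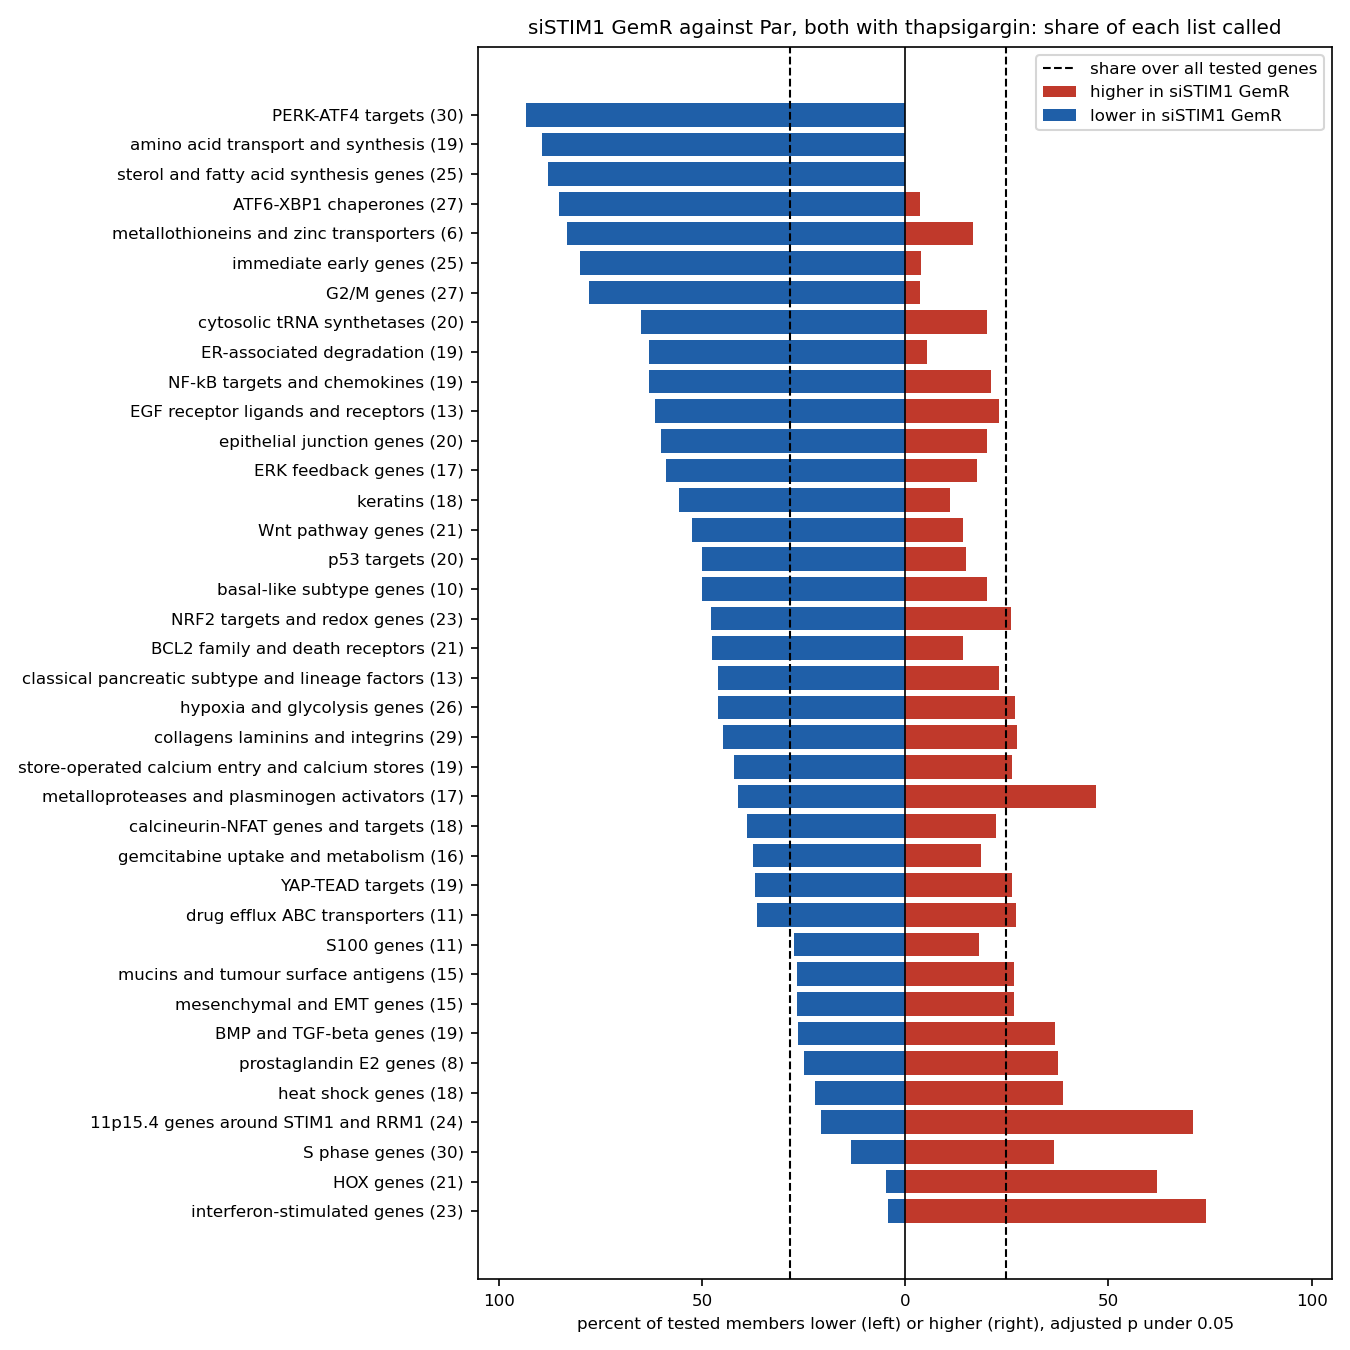
Percent of the tested members of each list that were lower (blue, left) or higher (red, right) in GemR siSTIM1 than in Par with thapsigargin, with the number of tested members in parentheses. Dashed lines mark the shares over all tested genes, 28.3% lower and 24.7% higher. Bars for the PERK-ATF4, amino acid, sterol and ATF6-XBP1 lists reach farthest to the left, and those for interferon-stimulated, 11p15.4 and HOX genes farthest to the right.

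Targets of PERK and ATF4 were lower in the siSTIM1 GemR cells almost throughout. Of 30 tested genes 28 were lower and 0 higher, 10 of them by at least 2-fold, with a median of -0.83, and 28 were lower without siSTIM1 replicate 1 too. DDIT3, which encodes CHOP, stood at 6508, 6819 and 6868 in Par and at 4225, 3436 and 3401 in GemR siSTIM1 (-0.88 ± 0.12, adjusted p = 3.91e-06). TRIB3, a pseudokinase that CHOP and ATF4 raise, stood at 10171, 10798 and 10194 in Par and at 5746, 4881 and 4263 in GemR siSTIM1 (-1.08 ± 0.09). PPP1R15A, the phosphatase subunit that restores translation, stood at 7709, 7523 and 7168 in Par and at 2985, 2506 and 2925 in GemR siSTIM1 (-1.42 ± 0.11). In each of these 3 genes every siSTIM1 library was below every Par library. The stress factor ATF3 stood at 1968, 1801 and 1639.6 in Par and at 599, 613 and 669.6 in GemR siSTIM1 (-1.52 ± 0.16). For CHAC1 the libraries were at 3046, 3353 and 3089 in Par and at 2482, 1959.9 and 2092 in GemR siSTIM1 (-0.54 ± 0.11, adjusted p = 0.000462). Both were lower without overlap.

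ATF4 itself differed by less than most of its targets. Its counts were 10738, 10847 and 11252 in Par and 9814, 8347 and 8584 in GemR siSTIM1, without overlap (-0.30 ± 0.07, adjusted p = 0.00211), and its call was lost with quantile normalization (adjusted p = 0.0578). NUPR1, a stress-induced chromatin cofactor (-1.49 ± 0.11), and TNFRSF10B, a death receptor that CHOP raises (-1.12 ± 0.07), were lower by more. The 3 members with the largest differences were TXNIP, FGF21 and INHBE. TXNIP, which binds thioredoxin, stood at 1322, 1278 and 1259 in Par and at 97.8, 79.8 and 59.6 in GemR siSTIM1 (-4.03 ± 0.15). The hormone FGF21 stood at 99.2, 105 and 119 in Par and at 5.93, 7.82 and 4.83 in GemR siSTIM1 (-3.93 ± 0.34). The activin subunit INHBE stood at 339, 394 and 364 in Par and at 31.6, 64.2 and 28.2 in GemR siSTIM1 (-3.21 ± 0.32). All 3 were far below Par in each siSTIM1 library. RHBDD1 (0.09 ± 0.13, adjusted p = 0.612) and KLHL24 (0.27 ± 0.16, adjusted p = 0.157) were the members that did not pass.

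The chaperone arm was lower too, by smaller amounts. Among 27 ATF6-XBP1 genes 23 were lower and 1 higher, 0 by as much as 2-fold, with a median of -0.52, and without siSTIM1 replicate 1, 22 were lower and 0 higher. HSPA5 stood at 111138, 106362 and 103042 in Par and at 87374, 79392 and 78014 in GemR siSTIM1, all below the lowest Par library (-0.39 ± 0.06, adjusted p = 2.07e-05). Quantile normalization, which gives the genes of one rank one value in all libraries, left it no difference (0.0, adjusted p = 1). DNAJB9, a co-chaperone under XBP1, stood at 2553, 2564 and 2675 in Par and at 1407, 1317 and 1429 in GemR siSTIM1 (-0.91 ± 0.10). HYOU1, an ER chaperone of the HSP70 family, stood at 40771, 40901 and 40612 in Par and at 23510.3, 22397 and 23039 in GemR siSTIM1 (-0.83 ± 0.06). Neither gene's groups overlapped. The protein disulfide isomerases PDIA6 (-0.83 ± 0.06) and P4HB (-0.77 ± 0.06) were lower by similar amounts, and HSP90B1 (-0.51 ± 0.08) and CRELD2, an ER-resident stress protein (-0.47 ± 0.11), by less. SIL1, a nucleotide exchange factor of HSPA5, was the higher member (0.30 ± 0.10, adjusted p = 0.0175), with adjusted p = 0.107 without siSTIM1 replicate 1 and 0.0577 without Par replicate 1.

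For ER-associated degradation, which clears misfolded proteins, 12 of 19 genes were lower and 1 higher (median -0.29). SEL1L (-0.63 ± 0.10) and SYVN1 (-0.56 ± 0.07), the core of its ubiquitin ligase, were among the lower. The higher one, UBXN4 (0.18 ± 0.07), was not called without Par replicate 1, 2 or 3 or siSTIM1 replicate 2 or 3, since 0 genes of the list were then higher, and without siSTIM1 replicate 1, 2 genes were.

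Amino acid supply, a branch under ATF4, was lower in 17 of 19 genes and higher in 0, 6 of them by at least 2-fold (median -0.81). The list was about as low with vehicle, where 16 of 19 were lower, 8 by at least 2-fold, and 2 higher (median -0.78). For the difference between thapsigargin and vehicle 3 were lower and 0 higher, with a median of 0.03. SLC7A5, the light chain of a transporter for large neutral amino acids, stood at 45775, 51159 and 50305 in Par and at 12737, 12619 and 12636 in GemR siSTIM1 (-1.95 ± 0.10, adjusted p = 1.14e-11). Its heavy chain SLC3A2 stood at 23723, 26215 and 24766 in Par and at 11963, 10259.6 and 10250.2 in GemR siSTIM1 (-1.20 ± 0.07). MTHFD2, a mitochondrial folate enzyme, stood at 19430.0, 19839.6 and 19942 in Par and at 8868, 8856 and 8669 in GemR siSTIM1 (-1.17 ± 0.05). The siSTIM1 libraries of all 3 lay close together and well under Par. Asparagine synthetase, ASNS, was lower (-0.81 ± 0.06), while CBS and SLC38A2 did not pass (adjusted p = 0.105 and 0.0503). SLC38A2 was called by 8 of 20 alternatives, among them the fit of only the libraries compared (0.038), and CBS with quantile normalization (0.0378). Of 20 cytosolic tRNA synthetases 13 were lower, led by CARS (-1.05 ± 0.07), and 4 higher, led by RARS (0.38 ± 0.08). With quantile normalization 8 of them were lower.

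GemR siCont libraries with thapsigargin allow the same stress lists to be set beside the depleted cells. These comparisons share libraries with the first one, so their values are given side by side. Among all genes, 23.2% were higher and 25.0% lower in GemR siCont than in Par, and 17.7% were higher and 18.9% lower in GemR siSTIM1 than in GemR siCont. The PERK-ATF4 list was lower in 26 of 30 genes in GemR siCont against Par (median -1.07), and in siSTIM1 against siCont 12 were higher and 5 lower (median 0.16). DDIT3 was at 1839.8, 2014 and 1692 in GemR siCont, below all siSTIM1 libraries (0.99 ± 0.12 for siSTIM1 against siCont, adjusted p = 1.75e-06). TRIB3 was at 2066, 2208 and 1903 there, likewise below them (1.26 ± 0.09). PPP1R15A was at 2759, 2681 and 2946, a range that overlapped siSTIM1 (0.00 ± 0.11, adjusted p = 0.992). ATF3 was at 1332, 1407 and 1502, above the siSTIM1 libraries (-1.17 ± 0.16). So the 4 genes, all lower than Par in both GemR groups, did not follow one order between siSTIM1 and siCont. For the ATF6-XBP1 list the medians were -0.58 for siCont against Par and 0.01 for siSTIM1 against siCont, and HSPA5 was at 64230.1, 63109.7 and 61009 in GemR siCont. SLC7A5 had another order: it was at 52549.9, 59958 and 54915 in GemR siCont, above every Par library, and lower in siSTIM1 than there (-2.14 ± 0.10).

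Genes of calcium entry and of the calcium store differed in both directions. Of 19 tested 5 were higher and 8 lower, with a median of 0.11. ORAI3, a channel subunit that STIM1 can open, stood at 50.1, 34.5 and 44.7 in Par and at 226, 171 and 195 in GemR siSTIM1 (2.18 ± 0.15, adjusted p = 9.01e-10). GemR siCont was at 81.8, 78.4 and 82.5, between the 2 groups (1.27 ± 0.15 for siSTIM1 against siCont). ORAI2, another channel subunit, stood at 117, 105 and 116 in Par and at 356, 311 and 305 in GemR siSTIM1 (1.51 ± 0.13). GemR siCont held a like level of it, at 328, 321 and 334 (-0.02 ± 0.13, adjusted p = 0.914). ORAI1, the main pore subunit, had overlapping groups, at 422, 369 and 377 in Par and 502, 389.6 and 422 in GemR siSTIM1 (0.16 ± 0.10, adjusted p = 0.184). ORAI3 and ORAI2 were thus the members with the largest positive differences, and ORAI1 did not pass.

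Among store channels, the inositol trisphosphate receptor ITPR1 stood at 657, 579 and 613 in Par and at 150.2, 210.5 and 242 in GemR siSTIM1 (-1.64 ± 0.25). ITPR2 stood at 2433, 2049 and 2127 in Par and at 885, 1105 and 1181 in GemR siSTIM1 (-1.07 ± 0.15). Both were lower without overlap, while ITPR3 overlapped, at 3059, 3219 and 3118 in Par and 2942, 3692 and 3529.6 in GemR siSTIM1 (0.11 ± 0.15, adjusted p = 0.57). Of the SERCA genes, whose products thapsigargin blocks, ATP2A3 was lower (-1.13 ± 0.21). ATP2A2 was lower as well (-0.38 ± 0.11, adjusted p = 0.00944), with 0.0599 without siSTIM1 replicate 1 and 0.246 with quantile normalization. SARAF, which turns calcium entry off, was lower (-0.73 ± 0.06). STIM2, the second sensor, was lower (-0.28 ± 0.10, adjusted p = 0.0194), a call lost without siSTIM1 replicate 1 (0.122), Par replicate 1 (0.0596) or Par replicate 2 (0.0695).

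Calcineurin-NFAT genes and targets were higher in 4 and lower in 7 of 18 (median -0.25). RCAN1, the feedback inhibitor of calcineurin, stood at 534, 385 and 425 in Par and at 2396, 2135 and 2681 in GemR siSTIM1 (2.43 ± 0.12, adjusted p = 7.66e-12). The cytokine IL11 stood at 19.8, 15.1 and 21.8 in Par and at 91.9, 86.8 and 121 in GemR siSTIM1 (2.34 ± 0.25). RRAD, a Ras-related inhibitor of voltage-gated calcium channels that is in no list, was at 7.55, 9.71 and 6.24 in Par and at 90.9, 79.0 and 78.2 in GemR siSTIM1 (3.26 ± 0.30). These 3 genes were higher without overlap, whereas EGR2 and EGR3, also members of the list, were lower (values with the immediate early genes below). GemR siCont held RCAN1 at 2113, 1932 and 2099, a level that did not differ past the threshold from siSTIM1 (0.23 ± 0.12, adjusted p = 0.165). IL11 was at 382, 334 and 312 in GemR siCont, above siSTIM1 (-1.78 ± 0.25). RRAD was at 323, 301 and 302 there, also above (-1.89 ± 0.30). Both thus lay between Par and GemR siCont in the depleted cells. NFATC2, one of the NFAT factors (0.19 ± 0.19, adjusted p = 0.412), and the nuclear receptor NR4A2 (0.35 ± 0.17, adjusted p = 0.1) did not pass, though NR4A2 was called by 7 of 20 alternatives, among them edgeR (0.00933) and DESeq2 (0.00261).

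Immediate early genes, the first transcripts that calcium and ERK signals raise, were lower in 20 of 25 and higher in 1 (2 by edgeR or DESeq2), with 10 lower by at least 2-fold (median -0.75). EGR1 stood at 3811, 4136 and 3978 in Par and at 1201, 1110.2 and 1319 in GemR siSTIM1 (-1.72 ± 0.09, adjusted p = 6.02e-12). EGR2 stood at 99.2, 110.1 and 114 in Par and at 13.8, 15.6 and 12.1 in GemR siSTIM1 (-2.88 ± 0.21). EGR3 stood at 273, 258 and 238 in Par and at 46.5, 33.6 and 76.6 in GemR siSTIM1 (-2.35 ± 0.29). These 3 early growth response factors were lower without overlap, and EGR4, of the same family, was called too. KLF6, a zinc finger factor, stood at 4511, 4016 and 3873 in Par and at 939.9, 928 and 1168 in GemR siSTIM1 (-2.03 ± 0.11). FOS, a subunit of AP-1, stood at 413, 446 and 444 in Par and at 173, 164 and 214 in GemR siSTIM1 (-1.25 ± 0.14). These too were lower in every library, and JUNB, another AP-1 subunit, was the higher member (0.61 ± 0.08, adjusted p = 5.77e-06).

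The same list had a median of -0.02 in GemR siCont against Par, with 11 genes higher and 10 lower, and of -0.86 in siSTIM1 against siCont, with 2 higher (1 without GemR siCont replicate 1 or siSTIM1 replicate 3) and 19 lower. FOS was at 648, 678 and 744 in GemR siCont, above Par and above siSTIM1. FOSB, also of AP-1, was at 474, 467 and 435 in Par, 1990.3, 2147 and 2283 in GemR siCont and 176, 231 and 325 in GemR siSTIM1. EGR3 was at 545, 529 and 613 in GemR siCont. In these 3 genes GemR siCont was highest and GemR siSTIM1 lowest. EGR1, at 901, 999.6 and 1095 in GemR siCont, was under Par in both GemR groups. Genes of ERK feedback were lower in 10 of 17, among them the phosphatases DUSP7 (-1.46 ± 0.07) and DUSP6 (-0.70 ± 0.08), and higher in 3 (1 without Par replicate 3).

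EGF receptor ligands, receptors and their inhibitor ERRFI1 were lower in 8 of 13 and higher in 3, with 5 lower in 7 of the alternatives, among them those without siSTIM1 replicate 2 and without Par replicate 2 or 3. EPGN, the ligand epigen, stood at 454, 395 and 413 in Par and at 15.8, 43.8 and 18.5 in GemR siSTIM1 (-4.10 ± 0.34). ERRFI1 stood at 20689, 19901 and 19751 in Par and at 5229, 5418 and 6292 in GemR siSTIM1 (-1.84 ± 0.10). Both were lower without overlap, and the ligand AREG did not pass (0.00 ± 0.16, adjusted p = 0.987). Targets of NF-kB and chemokines were lower in 12 of 19 and higher in 4. CXCL8, interleukin 8, stood at 9868, 8445 and 8230.2 in Par and at 4294, 3612 and 5011 in GemR siSTIM1 (-1.05 ± 0.20). NFKBIZ, a nuclear regulator of NF-kB, stood at 526, 448 and 504 in Par and at 143, 151 and 210.3 in GemR siSTIM1 (-1.56 ± 0.16). TNFAIP2, a gene that tumour necrosis factor raises, went the other way (2.20 ± 0.09).

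**Figure D3:**
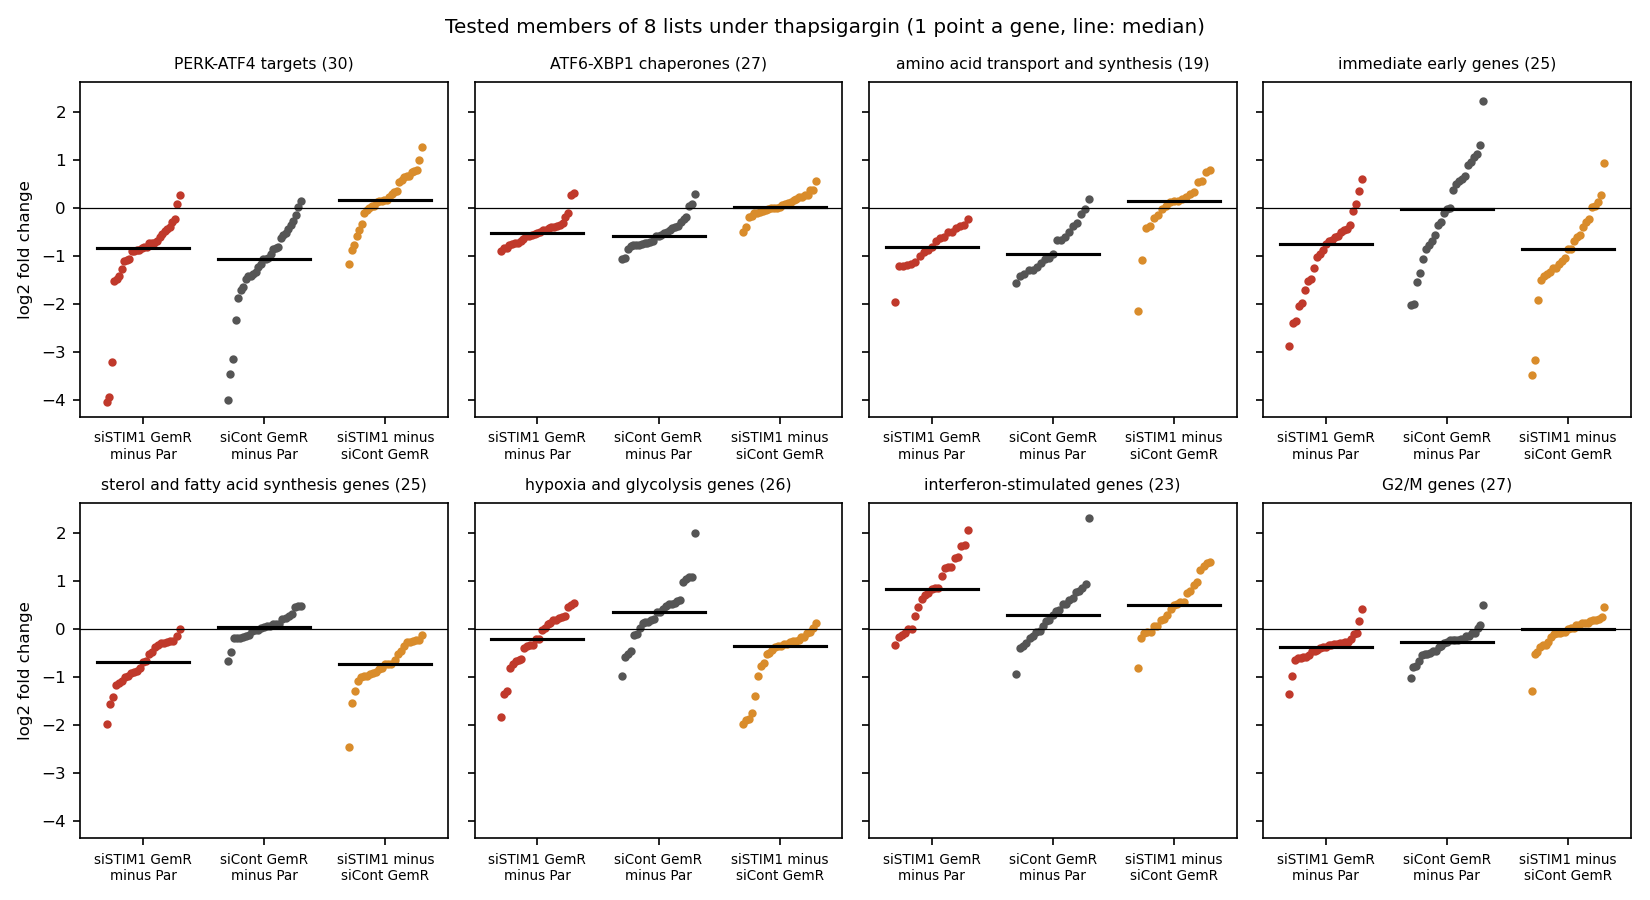
Log2 fold changes with thapsigargin of the tested members of 8 lists, 1 point a gene, with a line at the median, for GemR siSTIM1 minus Par (red), GemR siCont minus Par (dark grey) and GemR siSTIM1 minus GemR siCont (orange). The PERK-ATF4 medians are -0.83, -1.07 and 0.16 in that order, whereas those of the sterol list are -0.69, 0.04 and -0.73.

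Cholesterol and fatty acid synthesis, under the SREBP transcription factors, was lower in 22 of 25 genes and higher in 0 (median -0.69), with 22 lower also without siSTIM1 replicate 1. HMGCS1, an early enzyme of the pathway, stood at 6866, 6100.3 and 6091 in Par and at 2659, 2851 and 3308 in GemR siSTIM1 (-1.12 ± 0.08, adjusted p = 1.89e-09). No siSTIM1 library reached the lowest Par library. INSIG1, which retains SREBP in the ER, stood at 648, 588 and 588 in Par, 862, 815 and 882 in GemR siCont and 144, 148 and 175 in GemR siSTIM1 (-1.96 ± 0.14 against Par). GemR siCont was thus highest for INSIG1. For the list GemR siCont was near Par (median 0.04, 5 higher and 3 lower, with 3 higher without Par replicate 1 or 3 and 7 lower in a fit of only the libraries compared or with a length slope term), and siSTIM1 was lower than siCont in 22 of 25 (median -0.73). LSS (0.01 ± 0.08), ACLY (-0.15 ± 0.09) and ACACA (-0.33 ± 0.15) did not pass against Par. ACACA was called by 5 of 20 alternatives, among them the fit of only the libraries compared (0.011), and ACLY with a length slope term (0.00146) and without the GemR siCont vehicle group (0.0489).

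Interferon-stimulated genes were higher in 17 of 23 and lower in 1, with 9 higher by at least 2-fold (median 0.83). OASL, of the antiviral oligoadenylate synthetase family, stood at 87.8, 54.0 and 55.1 in Par and at 322, 242 and 255 in GemR siSTIM1 (2.06 ± 0.18, adjusted p = 1.28e-08). OAS1, of the same family, stood at 129, 107 and 82.1 in Par and at 374, 361 and 317 in GemR siSTIM1 (1.74 ± 0.15). IFIT3, an antiviral RNA-binding cofactor, stood at 61.4, 42.1 and 63.4 in Par, 67.7, 62.5 and 86.8 in GemR siCont and 214, 192 and 164 in GemR siSTIM1 (1.77 ± 0.17 against Par). The siSTIM1 libraries were above all Par libraries in the 3 genes, and for IFIT3 above GemR siCont as well. The list median was 0.31 for siCont against Par (8 higher, 4 lower, 2 lower without GemR siCont replicate 1) and 0.50 for siSTIM1 against siCont (12 higher, 2 lower). The last count was 0 without GemR siCont replicate 3 and 1 without any other library of those 2 groups.

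Hypoxia and glycolysis genes were higher in 7 and lower in 12 of 26 (median -0.21), the higher count being 4 without siSTIM1 replicate 1. The glucose transporter gene SLC2A1 stood at 21488, 22463 and 21291 in Par and at 8208, 9089.9 and 8507 in GemR siSTIM1 (-1.34 ± 0.08, adjusted p = 3.49e-11). The hexokinase gene HK2 stood at 3240.1, 3309.7 and 3392 in Par and at 1268, 1444 and 1401 in GemR siSTIM1 (-1.27 ± 0.08). Both were lower without overlap. GemR siCont held SLC2A1 at 30917, 32894 and 31393, above Par. The list was higher in 15 and lower in 4 in siCont against Par (median 0.35), and lower in 21 and higher in 0 in siSTIM1 against siCont (median -0.35).

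Metallothioneins, which bind zinc and copper, and zinc transporters had 6 tested genes, of which 5 were lower and 1 higher (median -1.16). MT1X stood at 205, 234 and 233 in Par, 250.1, 250.1 and 209 in GemR siCont and 106, 82.9 and 74.1 in GemR siSTIM1 (-1.36 ± 0.19 against Par). MT1F stood at 34.0, 38.8 and 36.4 in Par, 43.2, 42.3 and 41.8 in GemR siCont and 11.9, 6.26 and 8.06 in GemR siSTIM1 (-1.98 ± 0.26 against Par). The siSTIM1 libraries were lowest in both. Metallothionein genes are close copies of each other, so their separate counts are uncertain. SLC30A1, the zinc exporter, stood at 663, 567 and 583 in Par and at 214, 285 and 267 in GemR siSTIM1 (-1.25 ± 0.11), and the higher member was the zinc importer SLC39A10 (0.59 ± 0.12).

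Genes with the largest differences lay on both sides. PTGES, which makes prostaglandin E2, stood at 38.7, 29.1 and 40.5 in Par and at 2687, 2374 and 2307 in GemR siSTIM1 (6.06 ± 0.10, adjusted p = 3.71e-19). The gene of the fatty acid-binding protein FABP4 stood at 29.3, 33.5 and 23.9 in Par and at 764, 632 and 625 in GemR siSTIM1 (4.50 ± 0.25). The metalloprotease gene ADAM19 stood at 57.6, 74.5 and 83.2 in Par and at 896, 1136 and 1007 in GemR siSTIM1 (3.81 ± 0.17). In these 3 the lowest siSTIM1 library was more than 10 times the highest Par library. GemR siCont was near siSTIM1 for PTGES, at 2548, 2744 and 2670.0. For FABP4 it was at 135, 105 and 109 and for ADAM19 at 323, 321 and 380.4, between Par and siSTIM1.

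Further genes among the highest had lower counts. The gene of mesothelin, MSLN, a tumour surface protein, stood at 11.3, 12.9 and 6.24 in Par and at 183, 135 and 133 in GemR siSTIM1 (3.80 ± 0.26). The adenylate cyclase gene ADCY5 stood at 30.2, 27.0 and 21.8 in Par and at 379.5, 325 and 369 in GemR siSTIM1 (3.72 ± 0.12). LY6K, of the LY6 surface protein family, stood at 21.7, 14 and 11.4 in Par and at 366, 351 and 338 in GemR siSTIM1 (4.44 ± 0.18). The genes named among the highest and lowest were picked from calls without overlap, so their lack of overlap is no separate result. RNF182, a ubiquitin ligase (4.42 ± 0.22), the monoamine oxidase MAOA (3.65 ± 0.34), the progestin receptor family member PAQR8 (3.58 ± 0.30) and the long noncoding RNA LINC01468 (3.55 ± 0.36) were at 12 normalized counts or fewer in every Par library. The amino acid transporter SLC6A19 (5.27 ± 0.47) was at 0.944, 0 and 1.04 in Par, so its fold rests on the 1 added before the log.

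Among the lowest, CXCL5, a chemokine that draws neutrophils, stood at 957, 930.2 and 870.2 in Par and at 0.988, 1.56 and 0 in GemR siSTIM1 (-9.06 ± 0.46, adjusted p = 6.77e-12). The fibrillar collagen gene COL3A1 stood at 7574, 7042 and 6847 in Par and at 87.0, 84.5 and 91.9 in GemR siSTIM1 (-6.33 ± 0.12, adjusted p = 2.41e-18). SERPINB2, an inhibitor of plasminogen activators, stood at 787, 489 and 461 in Par and at 3.95, 6.26 and 5.64 in GemR siSTIM1 (-6.50 ± 0.59). All 3 were under 100 in each siSTIM1 library and far above that in each Par library. The cytokine gene IL1A stood at 285, 253 and 212 in Par, 0.94, 6.17 and 4.29 in GemR siCont and 4.94, 7.04 and 3.22 in GemR siSTIM1 (-5.41 ± 0.51 against Par). ALDH1A1, an aldehyde dehydrogenase, stood at 85.0, 79.9 and 74.9 in Par and at 0 in the 3 siSTIM1 libraries. For genes near 0 in GemR, CXCL5 and IL1A among them, adding 1 before the log sets much of the fitted fold. The complement regulator subunit C4BPB (-5.99 ± 0.55), the sialyltransferase ST6GALNAC1 (-5.92 ± 0.44), the cadherin DCHS2 (-5.32 ± 0.59), the ER-bound transcription factor CREB3L1 (-5.00 ± 0.66), the phospholipid transfer protein PLTP (-4.97 ± 0.38), the chromatin factor CECR2 (-4.71 ± 0.40) and VSTM2L (-4.70 ± 0.40) were at 6 normalized counts or fewer in every siSTIM1 library.

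Epithelial junction genes were lower in 12 of 20 and higher in 4 (median -0.41). The claudin gene CLDN7 stood at 2164, 2085 and 1919 in Par and at 959.7, 768 and 788 in GemR siSTIM1 (-1.30 ± 0.12). The occludin gene OCLN stood at 352, 319 and 323 in Par and at 80.1, 85.3 and 143 in GemR siSTIM1 (-1.73 ± 0.20). EPCAM, an epithelial adhesion molecule, stood at 5569, 5593 and 5632 in Par and at 2669, 2677 and 2517 in GemR siSTIM1 (-1.09 ± 0.10). These 3 were lower in every library. CDH1, the gene of E-cadherin, overlapped, at 641, 476 and 483 in Par and 423, 439.7 and 499.6 in GemR siSTIM1 (-0.22 ± 0.14, adjusted p = 0.194), and CDH3, P-cadherin, was higher (1.12 ± 0.07).

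Keratins were lower in 10 of 18 and higher in 2 (median -0.56). The basal keratin gene KRT5 stood at 12549.5, 12960.2 and 11838 in Par, 2083, 2044 and 2073 in GemR siCont and 606, 609 and 538 in GemR siSTIM1 (-4.41 ± 0.07 against Par, adjusted p = 3.34e-19). KRT6A, which has near-identical copies and is therefore uncertain, stood at 449.5, 545 and 455 in Par and at 34.6, 39.9 and 37.1 in GemR siSTIM1 (-3.66 ± 0.23). Neither overlapped, and the ductal keratins KRT8 (-0.78 ± 0.09) and KRT18 (-0.62 ± 0.09) were lower by less. Of 13 classical subtype and lineage genes 6 were lower and 3 higher, and of 10 basal-like genes 5 were lower and 2 higher. The lineage factor FOXA2 stood at 317, 236 and 342 in Par and at 20.8, 43.0 and 23.4 in GemR siSTIM1 (-3.37 ± 0.20). GATA6, which marks the classical subtype of pancreatic cancer, stood at 498, 489.9 and 496 in Par and at 181, 189 and 208 in GemR siSTIM1 (-1.36 ± 0.12). SOX9, a ductal factor, was higher, at 176, 217 and 174 in Par and 357, 344 and 335 in GemR siSTIM1 (0.88 ± 0.13). Mesenchymal genes split evenly, with 4 higher and 4 lower of 15 (2 lower without Par replicate 1). Fibronectin, FN1, was higher (1.65 ± 0.18) and SNAI1, a repressor of E-cadherin, lower (-1.73 ± 0.37).

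Matrix and adhesion genes went in both directions, with 8 higher and 13 lower of 29 (6 lower with quantile normalization). COL17A1, a hemidesmosome collagen, stood at 303, 279 and 263 in Par and at 2086, 2303 and 2181 in GemR siSTIM1 (2.95 ± 0.09). The integrin gene ITGB8 stood at 227, 204 and 215 in Par and at 709, 954 and 1011 in GemR siSTIM1 (2.03 ± 0.13). COL1A2, a fibrillar collagen like COL3A1, was lower, at 63.3, 68.0 and 53 in Par and 5.93, 7.04 and 0.806 in GemR siSTIM1 (-3.74 ± 0.57). The 10 fibroblast markers, COL1A2 among them, summed to 3933 to 4196 in Par and 2296 to 2668 in GemR siSTIM1. Of the 4 tested, 3 were lower and 1, ACTA2, higher (2.31 ± 0.29), and DCN, FAP and THY1 were at 0 in both groups. Their part in the collagen differences was not tested. Among proteases the collagenase MMP1 stood at 1092, 828 and 778 in Par and at 85.0, 93.9 and 70.9 in GemR siSTIM1 (-3.41 ± 0.14), and the membrane protease MMP14 was higher (1.17 ± 0.07).

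Genes that handle gemcitabine, RRM1 among them, were mixed, with 3 higher and 6 lower of 16 (5 higher with quantile normalization). SLC29A1, a nucleoside transporter that carries gemcitabine into cells, stood at 465, 557 and 491 in Par and at 349.9, 361 and 319.9 in GemR siSTIM1 (-0.55 ± 0.08, adjusted p = 1.67e-05). Its relative SLC29A2 stood at 472, 518 and 498 in Par and at 167, 178 and 177 in GemR siSTIM1 (-1.51 ± 0.08). Both transporters were lower without overlap, and lower than in GemR siCont as well (-0.60 ± 0.08 and -1.15 ± 0.08). DCK, the kinase that activates gemcitabine, overlapped, at 373, 379.9 and 374 in Par and 349.9, 451 and 443 in GemR siSTIM1 (0.13 ± 0.10, adjusted p = 0.254, and 0.0253 without siSTIM1 replicate 1). RRM2, the small subunit of the reductase, was slightly higher (0.22 ± 0.06), and RRM2B, the p53-induced small subunit, lower (-1.41 ± 0.12). The deaminase gene CDA was at 0, 0 and 0 in Par and at 1.98, 2.35 and 2.42 in GemR siSTIM1 and fell under the filter. Among 11 efflux transporters, 3 higher and 4 lower, ABCC3 (1.61 ± 0.08) and ABCA1 (1.86 ± 0.24) were higher and ABCB1 (-1.50 ± 0.24) and ABCG2 (-1.30 ± 0.15) lower.

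G2/M genes were lower in 21 of 27 and higher in 1 (median -0.36), with 17 lower and 2 higher without siSTIM1 replicate 1. The phosphatase gene CDC25B stood at 1779, 1790.3 and 1786 in Par and at 730.4, 749.5 and 634 in GemR siSTIM1 (-1.34 ± 0.08), and the mitotic kinase AURKA was lower by less (-0.46 ± 0.07). S phase genes were higher in 11 and lower in 4 of 30 (median 0.12). FAM111B, a protease gene of S phase, stood at 29.3, 32.4 and 27.0 in Par and at 272, 349.7 and 349.7 in GemR siSTIM1 (3.40 ± 0.12, adjusted p = 3.74e-14). Targets of p53 were lower in 10 of 20 and higher in 3. MDM2, the ligase that degrades p53, stood at 1145, 1066 and 1073 in Par and at 281, 380.2 and 338 in GemR siSTIM1 (-1.72 ± 0.10). The cell cycle inhibitor CDKN1A was lower too (-0.74 ± 0.14). BCL2 family and death receptor genes were lower in 10 of 21, among them the proapoptotic BBC3 (-0.92 ± 0.21), and higher in 3, among them the proapoptotic BIK (1.46 ± 0.15), with 5 higher when each library was centred on its median or quantile normalized.

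Other signalling lists held single large differences. RNF43, which removes Wnt receptors from the surface, stood at 96.3, 99.3 and 103 in Par and at 3.95, 6.26 and 8.86 in GemR siSTIM1 (-3.83 ± 0.26), and 11 of 21 Wnt genes were lower and 3 higher, with 7 lower without Par replicate 1. BMP4, a growth factor, stood at 36.8, 54.0 and 49.9 in Par and at 142, 172 and 132 in GemR siSTIM1 (1.65 ± 0.16), while ID2, a BMP target, was lower (-1.82 ± 0.38). Targets of YAP and TEAD were higher in 5 and lower in 7 of 19. ANKRD1, one of them, stood at 801, 933 and 920.1 in Par and at 108, 104 and 116 in GemR siSTIM1 (-3.00 ± 0.09). CTGF, a matricellular protein, stood at 5618, 5576 and 5498 in Par and at 1583, 1551 and 2199.9 in GemR siSTIM1 (-1.66 ± 0.14). NT5E, the ectonucleotidase CD73, went the other way, at 467, 499.6 and 450.2 in Par and 2056, 2289 and 2269 in GemR siSTIM1 (2.22 ± 0.08). Redox genes under NRF2 were higher in 6 and lower in 11 of 23. Among them heme oxygenase, HMOX1, was lower (-2.23 ± 0.26), and the aldo-keto reductase AKR1C1, close in sequence to its neighbours and so uncertain, higher (2.80 ± 0.17). HOX genes were higher in 13 of 21, with HOXB8 the highest (1.19 ± 0.27), and lower in 1, HOXD1 (-2.39 ± 0.34). Heat shock genes were higher in 7 and lower in 4 of 18, and in 11 and 1 with quantile normalization. HSPA1A, near-identical to HSPA1B, stood at 206, 244 and 235 in Par and at 549.5, 519.5 and 517 in GemR siSTIM1 (1.21 ± 0.08).

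The region of chromosome 11 beside STIM1 was high in both GemR groups. From RRM1 to SBF2 (GENCODE 29, GRCh38, 4094707 to 10294207) 38 genes were tested. Of these 33 were higher and 2 lower in GemR siSTIM1 than in Par, with a median of 1.72 beside 1.73 in GemR siCont. The 3 tested genes nearest to STIM1 on this side, RRM1, TRIM21 and TRIM68, had a median of 3.24. TRIM21, an antibody receptor inside cells, stood at 200.2, 199 and 189 in Par and at 2010.3, 1719 and 1846 in GemR siSTIM1 (3.24 ± 0.08). RHOG, a small GTPase gene on the other side of STIM1, did not pass (-0.20 ± 0.09, adjusted p = 0.0591, and 0.0211 without the GemR siCont vehicle group), and the 65 tested genes from the chromosome end to RHOG had a median of -0.48. The 11 tested genes beyond SBF2, up to 12 Mb, had a median of -0.60. STIM1, between RHOG and RRM1, was at 3.84 against Par in GemR siCont and at -0.48 in GemR siSTIM1. The segment ends were drawn with these values in view and carry no test.

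**Figure D4:**
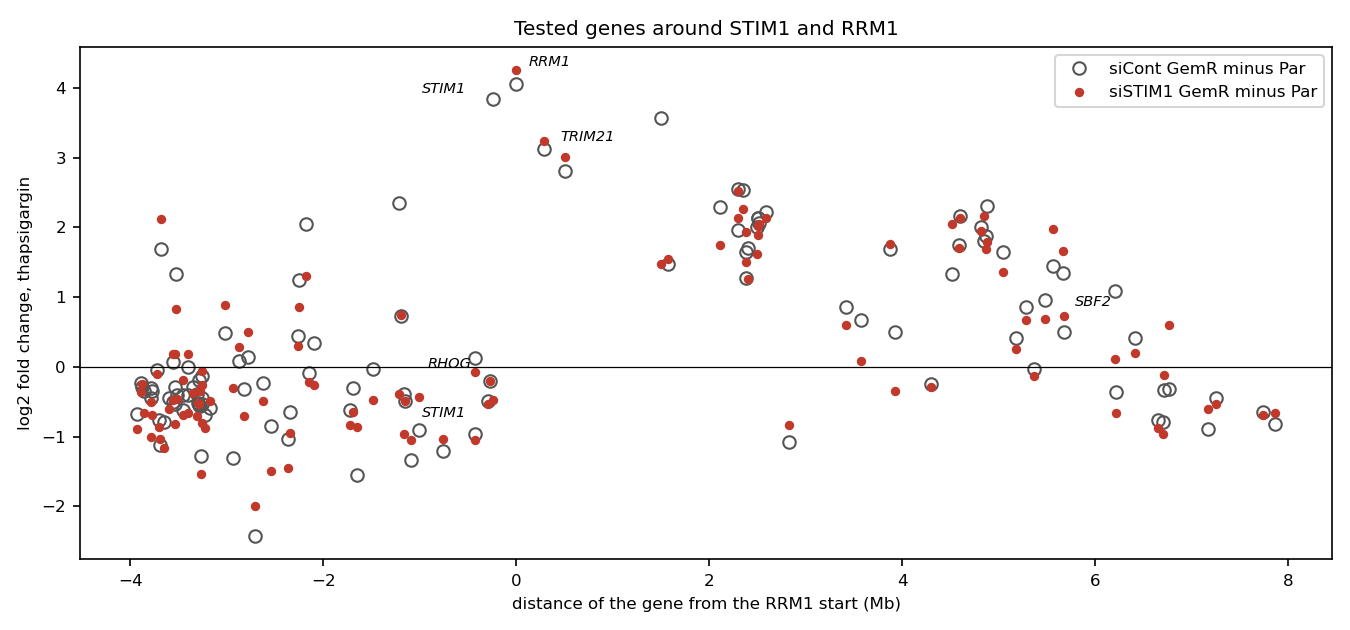
Log2 fold change with thapsigargin of tested genes starting in the first 12 Mb of chromosome 11, by their distance from the RRM1 start in Mb. Open circles are GemR siCont minus Par and red points are GemR siSTIM1 minus Par. The open and red points of RRM1 and TRIM21 lie close together, and those of STIM1 lie 4.32 apart.

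The same cell comparison was made with vehicle, in libraries that the thapsigargin comparison does not share. There 6601 of 13096 genes (50.4%) passed the threshold in either direction, 3163 of them higher and 3438 lower in GemR siSTIM1 than in Par. Of the genes higher with thapsigargin 64.6% were also higher with vehicle (66.0% of the vehicle list), and of the lower genes 66.6% were also lower with vehicle (71.8% of that list). In all, 139 genes were past the threshold in opposite directions. Between these comparisons, which share no library, Pearson's r of the log2 fold changes was 0.845 and Spearman's rho was 0.738 over 13096 genes, which are not independent. RRM1 (4.28), PTGES (5.47), COL3A1 (-6.63), KRT5 (-4.70) and CXCL5 (-9.39) differed from Par with vehicle as well. SLC7A5 stood at 34617, 34905 and 40339 in Par and at 7187, 7158 and 7316 in GemR siSTIM1 with vehicle (-2.34 ± 0.10). Whole lists differed with vehicle too. Of the ATF6-XBP1 genes 22 of 27 were lower and 0 higher (median -0.39). Immediate early genes were lower in 18 of 25 and higher in 1 (median -0.69), and sterol genes lower in 16 of 25 and higher in 0 (median -0.29). Interferon-stimulated genes were higher in 16 of 23 and lower in 1 (median 0.63).

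The difference between the thapsigargin and vehicle comparisons was past the threshold in 1045 genes (2577 without the GemR siCont vehicle group), 400 higher (3.05%) and 645 lower (4.93%). The count was 666 without GemR siSTIM1 thapsigargin replicate 1, 621 without GemR siSTIM1 vehicle replicate 1, 621 without Par thapsigargin replicate 1 and 691 without Par vehicle replicate 1. Among PERK-ATF4 targets 18 of 30 were lower with thapsigargin relative to vehicle and 0 higher (median -0.76). In vehicle alone, 15 of the 30 were already lower in GemR siSTIM1 than in Par, 8 by at least 2-fold, and 10 were higher (median -0.205). With vehicle DDIT3 stood at 169, 159 and 188 in Par and at 173, 194 and 182 in GemR siSTIM1, groups that overlapped, and the difference of differences was -0.97 ± 0.16 (adjusted p = 0.000981). ATF3 overlapped too with vehicle, at 58.9, 111 and 89.7 in Par and 87.6, 72.2 and 95.3 in GemR siSTIM1 (-1.53 ± 0.23). TRIB3 was at 1042, 1030.2 and 1169 in Par and 1024, 1064 and 1035 in GemR siSTIM1 (-1.02 ± 0.12). In these 3 genes the groups overlapped with vehicle and were apart with thapsigargin. CHAC1 was higher in GemR siSTIM1 with vehicle, at 109, 106 and 89.4 against 21.3, 28.2 and 23.4 in Par, and lower with thapsigargin (-2.56 ± 0.16, adjusted p = 9.95e-09). ATF4 likewise changed sides, from 0.48 with vehicle to -0.30 with thapsigargin (-0.78 ± 0.10), and PPP1R15A had -1.14 ± 0.15. Of the ATF6-XBP1 genes 2 of 27 were lower. That count was 1 without GemR siSTIM1 replicate 1 of either treatment, Par thapsigargin replicate 1 or 3 or Par vehicle replicate 3, and 7 with a length slope term.

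**Figure D5:**
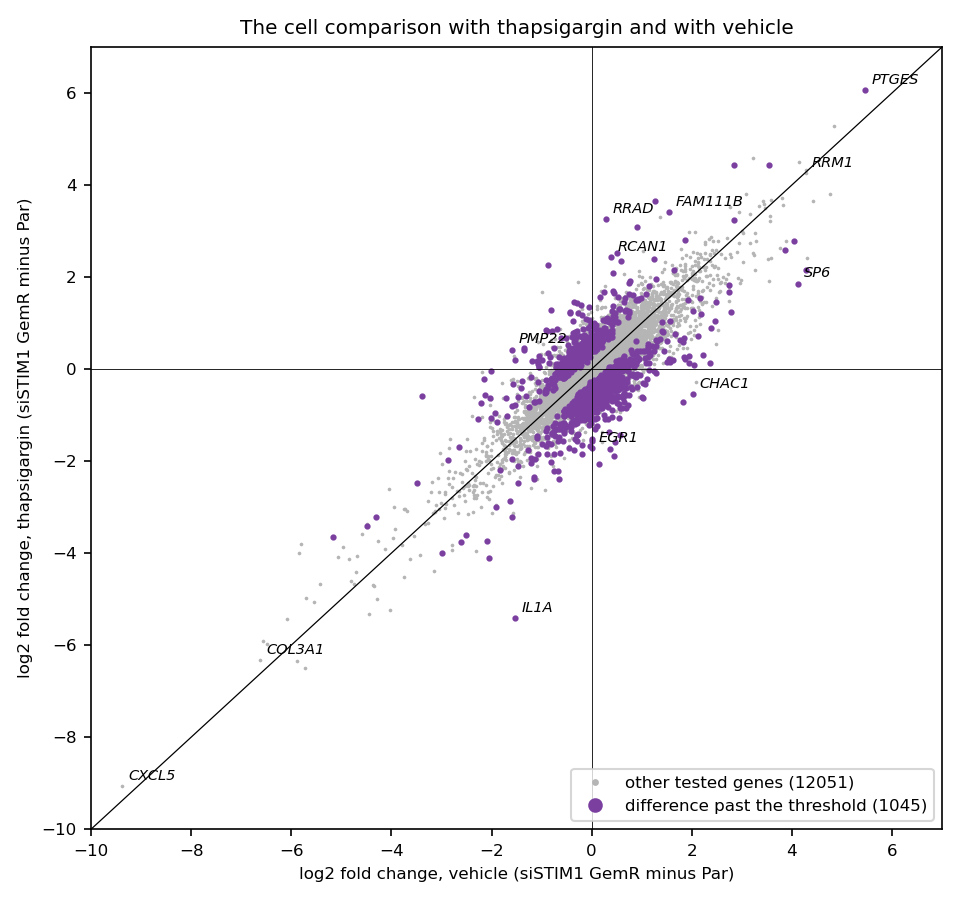
Log2 fold change of GemR siSTIM1 minus Par with thapsigargin (vertical) against vehicle (horizontal) for the 13096 tested genes, with the diagonal of equal values. Purple points are the 1045 genes whose difference passed the threshold. RRM1, COL3A1 and CXCL5 lie near the diagonal, whereas RRAD, RCAN1, FAM111B and PMP22 lie above it and CHAC1, IL1A, SP6 and EGR1 below it.

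The calcium-linked lists did not lean one way in that difference. Calcineurin-NFAT genes were higher in 4 and lower in 2 of 18 (median -0.06), with 0 lower in edgeR or DESeq2. The lower count was 1 without GemR siSTIM1 thapsigargin replicate 1, its vehicle replicate 1 or 3, any Par thapsigargin library or Par vehicle replicate 1 or 2. Immediate early genes were higher in 4 and lower in 7 of 25, with 4 lower without Par vehicle replicate 1. The higher count was 2 without any 1 of the other libraries compared, apart from GemR siSTIM1 thapsigargin replicates 1 and 2. Calcium entry and store genes were higher in 1 and lower in 0 of 19 (2 higher without Par vehicle replicate 1, and 3 lower in a fit of only the libraries compared). The NFAT list's lower members were EGR2 (-1.24 ± 0.30, adjusted p = 0.204 in edgeR) and NFAT5, a factor that hypertonic stress activates (-1.01 ± 0.29), whose call was lost in 13 of 26 alternatives.

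Single members and RRAD stood on the higher side. RRAD was at 4.06, 8.91 and 3.90 in Par and 4.55, 9.15 and 6.95 in GemR siSTIM1 with vehicle, and its difference was 2.97 ± 0.43 (adjusted p = 0.000178). RCAN1 was at 172, 169 and 131 in Par and 182, 227 and 211 in GemR siSTIM1 with vehicle (2.03 ± 0.17, adjusted p = 5.79e-07). NFATC2 was lower in GemR siSTIM1 with vehicle, at 86.5, 53.9 and 78.5 against 186, 270.2 and 178 in Par (1.72 ± 0.27). All 3 thus stood higher against Par with thapsigargin than with vehicle, as did NR4A2 (1.22 ± 0.25) and IL11 (1.76 ± 0.35). PMP22, a membrane protein of myelin and epithelia, changed sides, from -1.59 with vehicle to 0.42 with thapsigargin (2.01 ± 0.16). C11orf86 (2.19 ± 0.40), CORO6, an actin-binding coronin (2.0 ± 0.30), CRIP2, a LIM domain protein (1.96 ± 0.34), FAM111B (1.86 ± 0.17), RNF182 (1.58 ± 0.31), SOX9 (1.57 ± 0.18), KRT6A (1.51 ± 0.32), HSPA1A (1.48 ± 0.12) and BMP4 (1.20 ± 0.23) were on the same side.

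On the lower side IL1A had the most negative value (-3.88 ± 0.73, adjusted p = 0.00239), with 10.2, 8.91 and 4.88 in Par and 5.69, 1.02 and 0.993 in GemR siSTIM1 with vehicle. EGR1 overlapped with vehicle, at 740.1, 815 and 837 in Par and 798, 836 and 773 in GemR siSTIM1 (-1.73 ± 0.12, adjusted p = 6.24e-08). CTGF overlapped too, at 1091, 1723 and 1423 in Par and 1277, 1324 and 1487 in GemR siSTIM1 (-1.63 ± 0.20). For these the lower level of the depleted cells came into view with thapsigargin. SP6, a transcription factor of the SP family, was higher in GemR siSTIM1 both with vehicle (4.12) and with thapsigargin (1.86), by less in the latter (-2.27 ± 0.25). PXDN, a matrix peroxidase (-2.24 ± 0.45), EPGN (-2.05 ± 0.48), NFKBIZ (-1.57 ± 0.22), ANKRD1 (-1.09 ± 0.12), ERRFI1 (-1.08 ± 0.15), KLF6 (-0.82 ± 0.16) and SLC2A1 (-0.58 ± 0.11) were lower too. SLC7A11-AS1 is antisense to SLC7A11 and cannot be told from it without strand; its difference (-2.56 ± 0.75, adjusted p = 0.0421) lost its call in 12 of 25 alternatives. Sterol genes were lower in 5 of 25 (8 in a fit of only the libraries compared or without the GemR siCont vehicle group, and 12 with a length slope term), HMGCS1 (-0.91 ± 0.12) among them. EGF receptor ligands and receptors were lower in 6 of 13, and YAP-TEAD targets in 8 of 19 (13, 13 and 14 in those fits).

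Between the siSTIM1 and siCont GemR cells with thapsigargin, the largest increase was in SCG2, a secretory granule protein. It stood at 76.5, 77.7 and 85.3 in Par, 37.6, 44.0 and 38.6 in GemR siCont and 637, 668 and 581 in GemR siSTIM1 (3.94 ± 0.11 for siSTIM1 against siCont, adjusted p = 8.72e-15). CYP24A1, the vitamin D hydroxylase, stood at 110.5, 79.9 and 91.5 in Par, 50.8, 38.8 and 43.9 in GemR siCont and 330.1, 347 and 349.7 in GemR siSTIM1 (2.92 ± 0.16). GemR siCont was lowest in both and GemR siSTIM1 highest. AP3B2, an adaptor subunit (3.44 ± 0.20), SPOCD1 (3.35 ± 0.34), SYNPO, an actin-binding protein (2.94 ± 0.27), and the netrin receptor UNC5A (2.88 ± 0.19) were higher with siSTIM1 too, and in all of these the siSTIM1 libraries were above Par as well. The lowest, apart from STIM1 itself (-4.32 ± 0.10), were EGR3 (-3.48 ± 0.29), TPRG1 (-3.24 ± 0.28), FOSB (-3.17 ± 0.21), the Wnt ligand WNT9A (-3.09 ± 0.23) and KRT6A (-3.08 ± 0.23). WNT9A stood at 185, 138 and 161 in Par, 269, 247 and 279 in GemR siCont and 24.7, 27.4 and 40.3 in GemR siSTIM1, so the depleted cells were below both. TPRG1 stood at 56.7, 41.0 and 68.6 in Par, 63.0, 79.3 and 90 in GemR siCont and 8.90, 10.2 and 4.03 in GemR siSTIM1, where it was lowest too.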

How the data were processed

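The values came from the authors' deposited table of normalized counts, a signal per gene in 18 libraries. The authors' own tables of comparisons were not used here. Per the submitters' processing notes, STAR 2.6.0c, HTSeq 0.11.1, DESeq2 and hg38 were used, and per the labels' protocols the libraries came from TruSeq RNA Library Prep Kit v2, which does not mark strand. Each column's values were whole multiples of 1 step (100% within 0.01), which gave reads of 8922439 to 16519239 per library. In GemR siSTIM1 vehicle replicate 3 the step was 0.993116, so its read total is uncertain and count tests used the other 17 libraries. Of 26485 genes, 13096 with a mean of at least 10 were tested with limma 3.58.1 (R 4.3.3, trend) on log2(deposited value + 1), with 6 group means, 12 residual degrees of freedom, two-sided tests, Benjamini-Hochberg adjustment over all tested genes and a threshold of 0.05. In 28 rows a date stands where a gene symbol should be, and these are not named here. Transcript lengths and positions came from GENCODE 29, promoters from RefSeq. The comparisons were GemR siSTIM1 against Par with thapsigargin, the same with vehicle, the difference of those 2, GemR siCont against Par and GemR siSTIM1 against GemR siCont, the last 2 with thapsigargin. The text names RRM1 and STIM1, then the 12 highest and 12 lowest calls of the first comparison without overlap and with a group mean of at least 50, up to 4 called members of each of 38 lists with the largest change, and the 6 highest and 6 lowest of the difference and of siSTIM1 against siCont. Genes named beyond that rule, such as ATF4, HSPA5, ORAI1, CDH1 and DCK, were picked for their known roles after their values had been seen, and some that the rule takes are not reported here. The members and lists were chosen with earlier results of these data known. Alternatives changed the added value, the filter, the scaling, limma's options, the libraries in the fit, the call rule and the tool (edgeR 4.0.16 and DESeq2 1.42.0 on recovered reads), added a replicate block or a slope on transcript length, or left out each library. Leaving out the GemR siCont vehicle group was added after seeing the data. The slope on transcript length came from each library's deviations from its own group mean in these data. It therefore takes up spread within groups, and the calls gained with it are no independent check. The fits were also run on simulated data, with far fewer changed genes than were called here. That simulation used a single setting of spread for all genes and no deviation with transcript length. It therefore checks the code and not the calls made in these libraries. Figures were drawn with matplotlib 3.10.9.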

Additional observations from a re-analysis of the deposited data

Results flagged for a closer look

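The comparison of GemR siSTIM1 with Par differed between thapsigargin and vehicle in 1045 genes, by limma's test of the difference of the 2 log2 fold changes (adjusted p under 0.05). On the higher side, where the depleted cells stood higher against Par with thapsigargin, the values were 2.97 for RRAD, 2.19 for C11orf86, 2.03 for RCAN1, 2.01 for PMP22, 2.0 for CORO6 and 1.96 for CRIP2. Further values on that side were 1.86 for FAM111B, 1.76 for IL11, 1.72 for NFATC2, 1.58 for RNF182, 1.57 for SOX9, 1.51 for KRT6A, 1.48 for HSPA1A, 1.22 for NR4A2 and 1.2 for BMP4. On the lower side they were -3.88 for IL1A, -2.56 for CHAC1, -2.56 for SLC7A11-AS1, -2.27 for SP6, -2.24 for PXDN and -2.05 for EPGN.

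Stress genes on the lower side were ATF3 (-1.53), PPP1R15A (-1.14), TRIB3 (-1.02), DDIT3 (-0.97) and ATF4 (-0.78). Early and ERK-linked genes there were EGR1 (-1.73), EGR2 (-1.24), ERRFI1 (-1.08) and KLF6 (-0.82). The NF-kB regulator NFKBIZ had -1.57, and the YAP-TEAD targets CTGF and ANKRD1 had -1.63 and -1.09. The sterol enzyme HMGCS1 had -0.91, the glucose transporter SLC2A1 had -0.58 and NFAT5 had -1.01.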

How the results depend on the processing

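With thapsigargin, 6129 to 6422 genes differed between GemR siSTIM1 and Par when each library was left out in turn, beside 6939 with all, and 6921 with edgeR, 6919 with DESeq2 and 8526 with a length slope term. Asking for at least 2-fold left 1508 genes there, 1428 with vehicle, 200 for the difference of the 2, 1183 for GemR siCont against Par and 728 for siSTIM1 against siCont. Leaving out each library gave 5719 to 6008 genes with vehicle, 5390 to 5612 for siCont against Par and 3908 to 4561 for siSTIM1 against siCont. The count of 1045 genes for the difference moved to 4153 with a length slope term, to 2164 with only the libraries compared, to 2577 without the GemR siCont vehicle group (chosen after seeing the data) and to between 621 and 1081 with 1 library left out (666 without siSTIM1 thapsigargin replicate 1, 691 without Par vehicle replicate 1), and the cause was not tested. Replicate numbers did not pair the libraries of the main comparison (correlations of deviations -0.121 to -0.031; between GemR siCont vehicle and GemR siSTIM1 thapsigargin, which are not compared, they were 0.14 to 0.491), and with the replicate block 7088 genes were called. Of the values of named genes under an alternative, 7422 kept their direction and side of the threshold, 301 lost the call, 31 gained it and 0 reversed. In the fits that leave a library out, every group still held 2 or more. Depth limits what can be said of genes near 0 in 1 group.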

Other observations

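Lists without a group-wide direction held further differences between GemR siSTIM1 and Par with thapsigargin. Metalloprotease and plasminogen activator genes were higher in 8 and lower in 7 of 17: the tissue plasminogen activator PLAT stood at 2966, 2505 and 2334 in Par and at 959.7, 782 and 929 in GemR siSTIM1 (-1.54 ± 0.10), while the urokinase gene PLAU (0.79 ± 0.08) and the protease inhibitor TIMP2 (1.14 ± 0.18) were higher. Mucins and tumour surface antigens had 4 higher and 4 lower of 15. CEACAM5, the carcinoembryonic antigen, stood at 154, 110.1 and 97.7 in Par and at 46.5, 50.9 and 40.3 in GemR siSTIM1 (-1.35 ± 0.21), and the tetraspanin TSPAN8 was lower too (-2.38 ± 0.13). LYPD3, a surface protein of the LY6 family, was higher (2.6 ± 0.19), and the mucin MUC1 did not pass (0.01 ± 0.19, adjusted p = 0.966).

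Of 8 tested prostaglandin E2 genes 3 were higher and 2 lower (1 higher without Par replicate 3, and 1 lower without it or without siSTIM1 replicate 1), with PTGS2, the inducible cyclooxygenase, at -0.70 ± 0.13. BMP and TGF-beta genes were higher in 7 and lower in 5 of 19 (4 higher without siSTIM1 replicate 3). The activin subunit gene INHBB stood at 10.4, 11.9 and 10.4 in Par and at 20.8, 38.3 and 33.8 in GemR siSTIM1 (1.39 ± 0.44), a call lost without siSTIM1 replicate 2 (adjusted p = 0.051). The TGF-beta receptor gene TGFBR2 was lower (-1.26 ± 0.11), as was the decoy receptor gene BAMBI (-1.99 ± 0.24). S100 genes, which encode small calcium-binding proteins, were higher in 2 and lower in 3 of 11 (1 higher without siSTIM1 replicate 1 and 4 in edgeR), with S100A3 at -1.31 ± 0.33 and S100A10 at 0.56 ± 0.11.

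Neighbouring genes differed together outside chromosome 11 as well. These stretches were picked after the values were seen, as runs of windows of 15 tested genes whose median passed 0.7 in size, and they carry no test. Most of those outside chromosome 11 were lower in GemR siSTIM1, and only some are given here. On chromosome 1 (39081316 to 40097727, GRCh38) all 12 tested genes from MACF1 to PPT1 were lower in GemR siSTIM1 than in Par, with a median of -0.95 beside -0.63 in GemR siCont. On chromosome 6 (26114873 to 26453415) 9 of 11 tested genes from HIST1H2BC to BTN3A3 were higher and 0 lower, with a median of 1.06 beside 0.40 in GemR siCont.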
